A study of Macaca radiata with 4 samples.

Results

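BCL10 and 9 genes of the NF-kB pathway, which are MALT1, IKBKB, NFKBIA, TNFAIP3, NFKB1, NFKB2, REL, RELA and RELB, were followed in the corpus luteum of the bonnet monkey (Macaca radiata), the gland that forms from the ovulated follicle and makes progesterone. Members were all probe sets, the probe groups that report 1 transcript on the array, whose only gene symbol in the array annotation was 1 of these 10 symbols. This gave 23 probe sets of 9 genes, out of 14132 genes with such a probe set. None was matched to RELA, which was not analysed here. The set was drawn up around BCL10 because of its difference between the 2 groups compared below. The differences between groups are therefore given for all members as a description, with no test.

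Every animal had received CET, an agent that per the labels stops the animal's own secretion of luteinizing hormone (LH), at 150 µg/kg body weight on day 7 of the luteal phase. In the rhLH group (arrays 3 and 4), 20 IU/kg of rhLH, a recombinant LH, was then injected intravenously at 24 h, and the corpus luteum was taken 8 h later. The PBS group (arrays 1 and 2) had the same CET treatment and received the vehicle PBS in place of rhLH. CET is thus shared by both groups, and neither shows the gland before CET. The labels count 2 animals per group but do not tie an array to an animal, so the spread between arrays may in part be technical.

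NF-kB is a family of dimeric transcription factors that inhibitor proteins hold in the cytoplasm. BCL10 is an adaptor that joins CARD-family scaffold proteins to the paracaspase MALT1. This complex leads to activation of the IkB kinase, which marks the inhibitors for destruction and so frees the dimers to enter the nucleus. The pathway is known for its role in the response of immune, vascular and steroid-making cells to cytokines, and several of its own inhibitors are among its targets. No table with transcript or probe sequences was used here, so probe sets are identified by name only.

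The 4 arrays were not equally alike. PBS array 1 correlated with the other 3 arrays at Pearson r of 0.752 to 0.780 across the 31659 probe sets kept after a filter on dim signals, against 0.940 to 0.947 among the other 3. Its 99th percentile of signal was 8886, below the 12091 to 12459 of the others. Its median signal was 186, above their 136 to 140, so dim probe sets tended to read higher on it. Members are therefore also set against each PBS array alone, and 2 values in brackets after "with" are the differences against PBS array 1 and PBS array 2, in that order. Signals are MAS5 values on a linear scale, differences are of log2(signal + 16), and the filter kept probe sets whose mean log2 value lay above that of a signal of 90.7. All 23 member probe sets passed it. Gland identity was checked with STAR, the mitochondrial cholesterol carrier, which had signals of 52570.3 and 51660 on the rhLH arrays and of 24283 and 54566 on the PBS arrays. All 10 luteal steroidogenic marker genes matched to a probe set passed the filter.

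BCL10 was lower with rhLH on both of its probe sets. On MmugDNA.3082.1.S1_at its signal was 733 and 746 on the rhLH arrays, against 2681 and 1885 on the PBS arrays. The rhLH arrays lay close together (log2 SD 0.017, n = 2), the PBS arrays further apart (log2 SD 0.36, n = 2), and the groups did not overlap. The log2 difference was −1.58, a signal 3.00-fold lower with rhLH, made up of −1.84 against PBS array 1 and −1.33 against PBS array 2.

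The other BCL10 probe set, MmuSTS.3173.1.S1_at, had signals of 349.9 and 310.2 on the rhLH arrays and of 1178.5 and 1448 on the PBS arrays. Here PBS array 2 was the higher of the PBS pair, whereas on the first probe set PBS array 1 was. The log2 difference was −1.94 (3.83-fold lower with rhLH), with −1.79 and −2.08 against PBS arrays 1 and 2. Both probe sets were thus more than 2-fold below each PBS array on each rhLH array. In tissue RNA, fewer cells of a type that expresses a gene and less of its RNA per cell cannot be told apart.

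**Figure D1:**
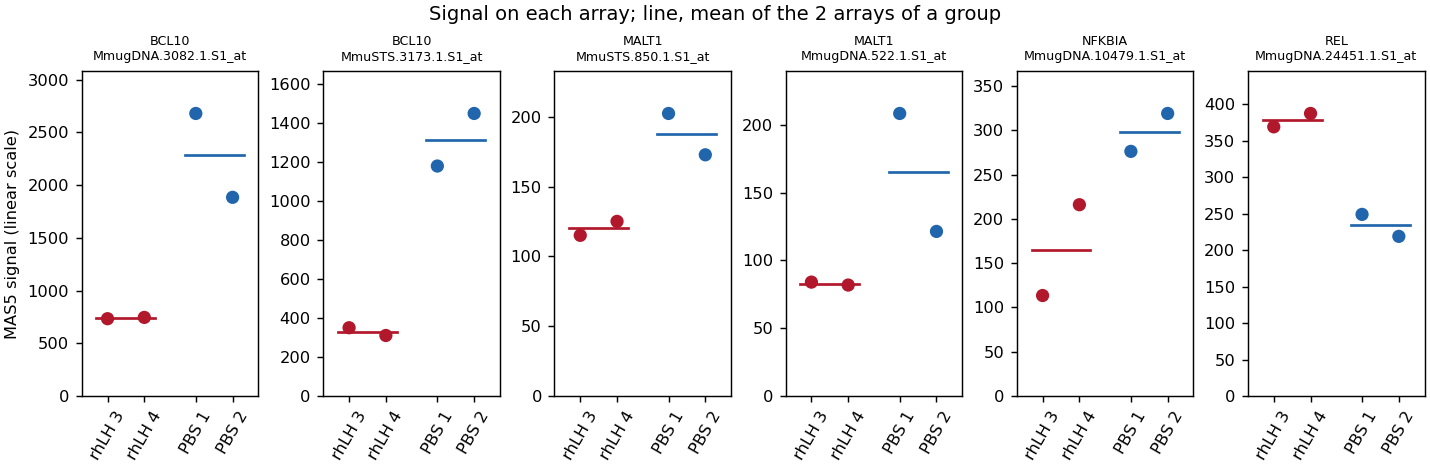
MAS5 signal (linear axis from 0) on each of the 4 arrays for the probe sets of BCL10, MALT1, NFKBIA and REL, rhLH arrays in red and PBS arrays in blue, with a line at the mean of each pair. The rhLH points lie below both PBS points in every panel except that of REL, where they lie above.

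The probe sets of BCL10 agreed in direction and in size. Of 4433 genes with at least 2 kept probe sets, BCL10 was the 1 gene for which every kept probe set was at least 2-fold below both PBS arrays on both rhLH arrays (0.0226%). That was also so under quantile normalization, with centred arrays, with the other pseudocounts and with a stricter filter. With no filter there were 2 such genes, and leaving out 1 array gave 3 to 43, BCL10 among them each time. Ranked by log2 difference from the lowest, its probe sets stood at 532 and 185 of 31659. These ranks describe the gene for which the set was chosen.

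MALT1, the protease partner of BCL10, was lower with rhLH on both probe sets too, by less. On MmuSTS.850.1.S1_at the signal was 115 and 125 on the rhLH arrays, against 202 and 173 on the PBS arrays (log2 difference −0.58, with −0.68 and −0.47 against PBS arrays 1 and 2). On MmugDNA.522.1.S1_at it was 84.0 and 81.8 on the rhLH arrays, against 208 and 121 on the PBS arrays (log2 difference −0.83, with −1.18 and −0.47). The groups did not overlap on either probe set. Both rhLH signals of the second lay below 90.7, so they are close to the dim end of what was kept.

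Of the 4433 genes with at least 2 kept probe sets, 143 (3.23%) had all of them below both PBS arrays on both rhLH arrays, and BCL10 and MALT1 were among these. Another 150 genes (3.38%) had all of them above, with no member among them, and 2 genes (0.0451%) had all of them at least 2-fold above. The 6 members with at least 2 kept probe sets thus divide into 2 with probe sets of 1 sign and 4 (IKBKB, TNFAIP3, NFKB1 and NFKB2) with differences of both signs.

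IKBKB, the catalytic IkB kinase subunit that phosphorylates the inhibitors, showed overlapping groups on all 5 probe sets. Its brightest, MmugDNA.29843.1.S1_at, had signals of 1922 and 1862 on the rhLH arrays and of 1642 and 2161 on the PBS arrays (log2 difference 0.0057, with 0.20 and −0.19). The rhLH arrays fell between the 2 PBS arrays there. On MmugDNA.18853.1.S1_at the signal was 576 and 713 on the rhLH arrays, against 1195 and 712 on the PBS arrays, so the log2 difference of −0.52 was made up of −0.88 against PBS array 1 and −0.15 against PBS array 2. The dimmer probe sets, MmugDNA.38056.1.S1_at and MmugDNA.42235.1.S1_at, stood at −0.29 (with −0.83 and 0.25) and −0.076 (with −0.016 and −0.14), the second at 0.13 under quantile normalization. MmugDNA.8188.1.S1_at read 135 and 243 on the rhLH arrays and 7.79 and 229 on the PBS arrays, and its log2 difference of 1.37 rested on the low value of PBS array 1 (3.06 against it, −0.31 against PBS array 2).

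Among the inhibitors, NFKBIA, which encodes IkB-alpha and is itself induced by NF-kB, was lower on both rhLH arrays. Its single probe set, MmugDNA.10479.1.S1_at, had signals of 113 and 216 on the rhLH arrays, against 276 and 319 on the PBS arrays. The groups did not overlap, although the rhLH arrays differed from each other (log2 SD 0.60, n = 2) by more than the PBS arrays did (log2 SD 0.14, n = 2). The log2 difference was −0.85, with −0.75 and −0.95 against PBS arrays 1 and 2. It was −1.27 without rhLH array 4 and −0.43 without rhLH array 3.

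TNFAIP3, a ubiquitin-editing enzyme that shuts off the IkB kinase and is also an NF-kB target, gave probe sets that disagreed. On the brightest, MmugDNA.40138.1.S1_at, the signal was 5324 and 3607 on the rhLH arrays and 2399.7 and 4849 on the PBS arrays (log2 difference 0.36, with 0.86 and −0.15). On MmuSTS.4659.1.S1_at it was 2221 and 1273 on the rhLH arrays and 975 and 1819 on the PBS arrays (log2 difference 0.33, with 0.78 and −0.11). In both, the order of the arrays was the same: rhLH array 3, PBS array 2, rhLH array 4, PBS array 1, from high to low.

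A second pair of TNFAIP3 probe sets ran the other way. MmugDNA.15656.1.S1_at had signals of 1027 and 1245 on the rhLH arrays, against 1572 and 1306 on the PBS arrays (log2 difference −0.34, with −0.47 and −0.21). MmugDNA.15654.1.S1_at had 831 and 874 on the rhLH arrays, against 1278 and 1085 on the PBS arrays (log2 difference −0.46, with −0.58 and −0.34). Neither overlapped, and in both PBS array 1 was the highest of the 4, where it was the lowest on the brighter pair. The fifth and dimmest probe set read 103 and 161 on the rhLH arrays and 18.7 and 170.2 on the PBS arrays (log2 difference 0.85, with 2.06 and −0.36). No single direction can be given for TNFAIP3.

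Of the dimer subunits, REL, which encodes c-Rel, was the one member higher with rhLH on its brightest probe set without overlap. Its only probe set, MmugDNA.24451.1.S1_at, had signals of 369 and 387 on the rhLH arrays, against 249 and 219 on the PBS arrays. The arrays of each group lay close together (log2 SD 0.047 with rhLH and 0.12 with PBS, n = 2 each). The log2 difference was 0.66, with 0.57 and 0.75 against PBS arrays 1 and 2.

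RELB, the subunit that pairs with the NFKB2 product in the non-canonical pathway, overlapped between groups. MmugDNA.33927.1.S1_at had signals of 674 and 436 on the rhLH arrays and of 907 and 495 on the PBS arrays. The spread within each group was wider than the log2 difference of −0.30, which was −0.72 against PBS array 1 and 0.13 against PBS array 2.

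NFKB1 encodes the precursor of a subunit without its own activation domain. On its brightest probe set, MmuSTS.3011.1.S1_at, the signal was 1244 and 1204 on the rhLH arrays and 1497 and 1110.5 on the PBS arrays (log2 difference −0.075, with −0.29 and 0.14, or 0.040 once arrays were centred on their medians). On MmugDNA.25322.1.S1_at it was 640.0 and 549.8 on the rhLH arrays and 760.2 and 619 on the PBS arrays (log2 difference −0.20, with −0.35 and −0.059). Both overlapped. The third and dimmest probe set read 177 and 233 on the rhLH arrays, against 53.3 and 172 on the PBS arrays. It lay above both PBS arrays, but by 1.66 on the log2 scale over PBS array 1 and by 0.22 over PBS array 2.

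NFKB2 encodes the precursor that the non-canonical pathway processes. Its brightest probe set, MmugDNA.35620.1.S1_at, had signals of 414 and 387 on the rhLH arrays, against 531 and 458 on the PBS arrays, with no overlap and a log2 difference of −0.29 (with −0.39 and −0.19). MmugDNA.25060.1.S1_at read 335 and 272 on the rhLH arrays and 63.2 and 309 on the PBS arrays, and MmugDNA.42566.1.S1_at read 193 and 176 on the rhLH arrays and 72.4 and 239.8 on the PBS arrays. On both of these PBS array 1 was far below the rest. Their log2 differences of 0.99 and 0.41 became −0.031 and −0.35 against PBS array 2 alone.

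**Figure D2:**
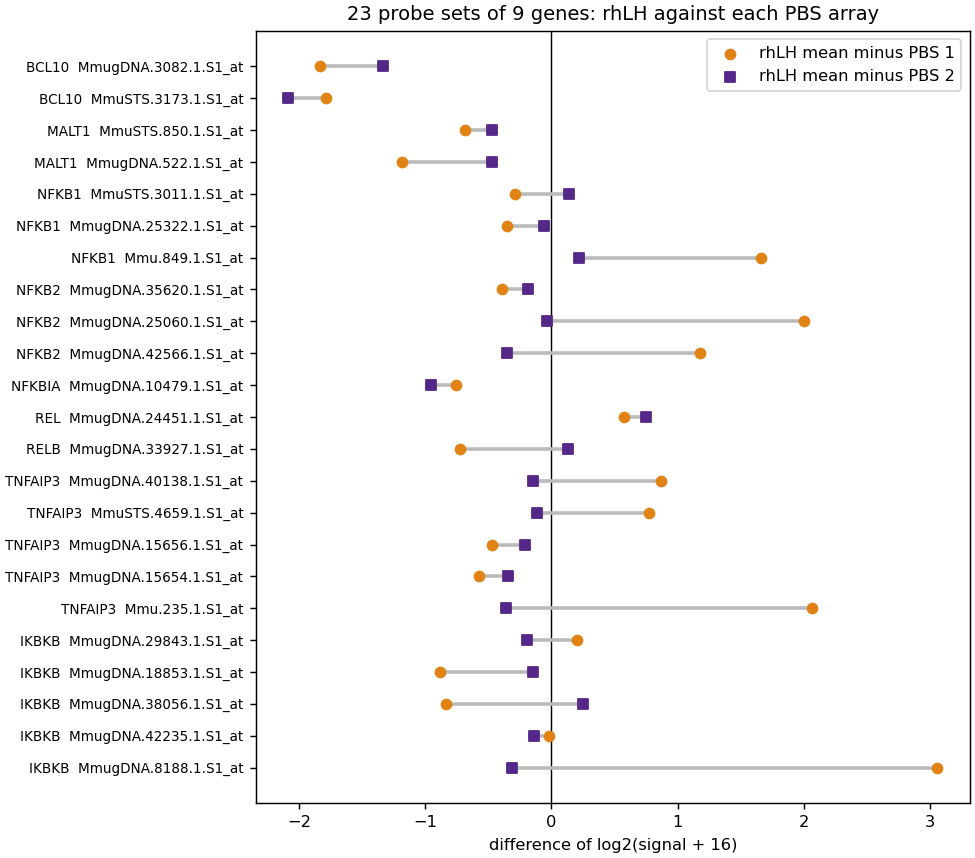
Difference of log2(signal + 16) between the rhLH mean and PBS array 1 (orange circles) and PBS array 2 (purple squares) for the 23 probe sets, grouped by gene. BCL10, MALT1 and NFKBIA lie left of 0 and REL right of 0 against both arrays, whereas the longest bars, of IKBKB, TNFAIP3, NFKB2 and NFKB1, come from probe sets that were low on PBS array 1.

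In 5 member probe sets of 4 genes (IKBKB, TNFAIP3, NFKB1 and NFKB2) the signal was below 90.7 on PBS array 1 and above it on the other 3 arrays. That was 21.7% of the members' probe sets, and the same pattern was found in 2073 (6.55%) of all kept probe sets. PBS array 1 was the lowest of the 4 arrays in 8 of the 23 (34.8%), beside 35.7% over all kept probe sets. That match did not hold by brightness. Below a mean signal of 300 it was the lowest in 5 of 10 member probe sets (50%), against 26.6% of all kept. At 300 or more it was the lowest in 3 of 13 (23.1%), against 42.3%.

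Counted over probe sets, 8 of the 23 (34.8%) were below both PBS arrays on both rhLH arrays, where the share over all kept probe sets was 17.7%. Above both PBS arrays were 2 (8.70%), against 14.4% of all, and 13 overlapped. Without the 2 BCL10 probe sets, 6 of 21 (28.6%) were below and 2 (9.52%) above. At least 2-fold below were the 2 BCL10 probe sets alone (0.49% of all kept), and 0 members were at least 2-fold above (0.344% of all). Since this contrast led to the choice of the members, nothing is read from these shares. Without PBS array 1, 12 lay below and 4 above, where 34.9% and 33.9% of all did so. Without PBS array 2, 13 lay below and 9 above (47.6% and 39.4% of all), 5 of them at least 2-fold above, as were 13.1% of all. Without rhLH array 3, 11 lay below and 3 above (28.0% and 23.8% of all), and without rhLH array 4, 9 and 5 (30.9% and 25.9% of all).

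With each gene taken by its brightest probe set, BCL10, MALT1, NFKBIA and NFKB2 lay below both PBS arrays, REL lay above, and IKBKB, TNFAIP3, NFKB1 and RELB overlapped. Over all 10998 kept genes 16.1% lay below and 16.3% above. At least 2-fold below lay BCL10 alone (0.336% of all kept genes), and 0 members were at least 2-fold above (0.318%). The median log2 difference of the 9 genes was −0.29, and that of the 8 without BCL10 was −0.18, beside 0.018 over all kept genes. Averaging the probe sets of a gene turned the sign of both medians, to 0.099 and 0.12.

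The genes whose profile over the 4 arrays was nearest to that of BCL10 were found by the root mean square difference of log2 values, each gene centred on its own mean. They were CDK15, a cyclin-dependent kinase family member (0.098), DNAL1, an axonemal dynein light chain (0.10), the cytokine gene IL18 (0.14), the serine/threonine kinase gene STK17B (0.14) and KIAA1614 (0.14). IL18 had signals of 151 and 165 on the rhLH arrays, against 489 and 357 on the PBS arrays, and STK17B had 371 and 303 on the rhLH arrays, against 1438 and 905 on the PBS arrays. CDK15 and KIAA1614 read 44.3 to 64.2 on the rhLH arrays, below the filter level. Among 10997 other genes, MALT1 ranked 724 and NFKBIA 814 in nearness to BCL10, and REL and TNFAIP3 ranked 8565 and 8568. The other probe set of BCL10 was 0.34 away from the first.

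**Figure D3:**
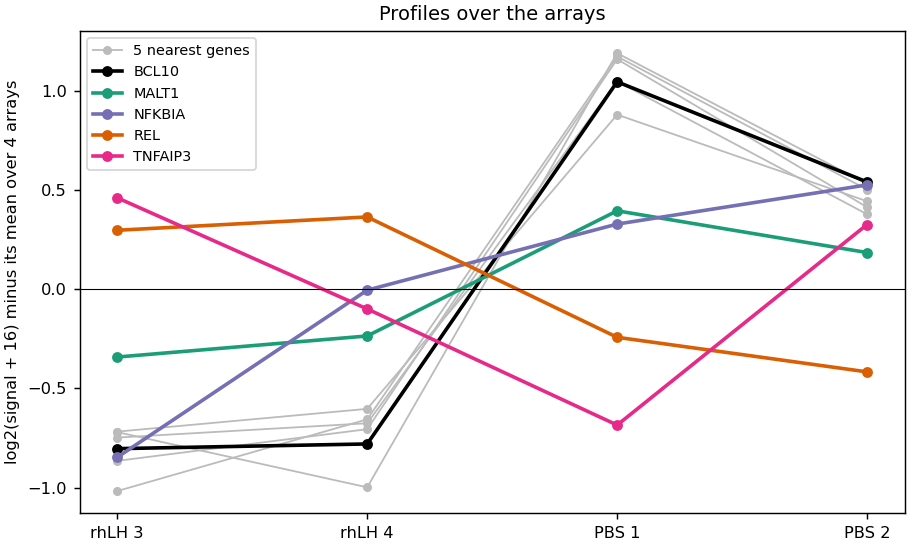
log2(signal + 16) minus its mean over the 4 arrays, by array, for BCL10, MALT1, NFKBIA, REL and TNFAIP3 (brightest kept probe sets) and, in grey, the 5 genes nearest to BCL10. Lines join the points of 1 gene and imply no order of the arrays. BCL10 is low on both rhLH arrays and highest on PBS array 1, REL is above 0 with rhLH and below 0 with PBS, and TNFAIP3 is lowest on PBS array 1.

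Further genes of the pathway were taken from 4 lists with 107 symbols, of which 72 genes were kept. With limma across all 31659 kept probe sets, 0 of them passed an adjusted p of 0.05, and 0 probe sets passed in all (0% called; smallest adjusted p 0.919). At an unadjusted p of 0.05 limma gave 641 probe sets, 363 lower and 278 higher with rhLH. By arrays, 17 of the 72 genes lay below both PBS arrays and 9 above, and 0 were at least 2-fold apart in either direction. The shares over all kept genes, against which these counts and those of each list stand, were 16.1% below and 16.3% above, and 0.336% and 0.318% at 2-fold.

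Upstream adaptors and kinases, which carry the signal from receptors to the IkB kinase, had 7 of 25 kept genes below both PBS arrays and 4 above (28% and 16%). Their median log2 difference was 0.051. The lowest were IRAK1, a kinase of interleukin-1 and Toll-like receptor signalling (−1.40, with −2.39 and −0.42 against PBS arrays 1 and 2), RIPK2, the kinase of the NOD receptors (−0.91, with −1.33 and −0.49), and CARD14 (−0.42, with −0.54 and −0.30), a scaffold that binds BCL10. CARD14 had signals of 141 and 84.9 on the rhLH arrays and of 167 and 138 on the PBS arrays, which overlapped. The highest were PRKCQ (1.05, with 2.33 and −0.22), a protein kinase C isoform upstream of the BCL10 complex in T cells, TAB1 (0.56, with 1.12 and 0.00021) and CARD9 (0.38, with 0.80 and −0.041), another scaffold of BCL10. All 3 overlapped between groups, so neither scaffold measured here separated rhLH from PBS. A further probe set of TAB1 stood at −0.017. CARD10, CHUK and IKBKG were not matched to a probe set and were not analysed here.

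Receptors and ligands of the pathway had 2 of 9 kept genes below both PBS arrays and 1 above (22.2% and 11.1%), with a median of 0.057. TNFRSF11B, the decoy receptor osteoprotegerin, had the lowest difference (−0.90), but it was −1.93 against PBS array 1 and 0.14 against PBS array 2. TNFRSF1B, a receptor of tumour necrosis factor, stood at −0.65 (with −0.61 and −0.69) and did not overlap, although its further probe sets stood at 0.17 and 0.19. Its signals were 481 and 1118 on the rhLH arrays, against 1130 and 1195 on the PBS arrays. The difference thus came mostly from rhLH array 3 (log2 SD with rhLH 0.84), and rhLH array 4 lay just below PBS array 1. Beside TNFRSF1B, the gene below both PBS arrays was LTBR (−0.16, with −0.10 and −0.21). TLR5, the flagellin receptor, stood at −0.39 (with −0.49 and −0.29), but its groups overlapped. Its signals were 158 and 78.9 on the rhLH arrays and 165 and 142 on the PBS arrays. On the higher side were CD40 (0.63, with 1.79 and −0.53), TNFSF13B, a B cell survival ligand (0.58, with 0.97 and 0.20), and IL1RL1, the receptor of interleukin-33 (0.57, with 1.49 and −0.36). Only TNFSF13B of these 3 separated the groups, and a further probe set of CD40 stood at −0.069.

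Inhibitors, atypical IkB proteins and deubiquitinases had 2 of 13 genes below and 2 above (15.4% each) and a median of −0.11. NFKBID and NFKBIZ, nuclear IkB proteins, stood at −1.03 and −0.42. TNFAIP8, which was placed in this list although its role as an inhibitor was not examined, stood at −0.74. All 3 were lower against PBS array 1 (−2.30, −1.14 and −1.82) and higher against PBS array 2 (0.23, 0.30 and 0.33), and a further probe set of NFKBID stood at 0.92. NFKBIB, which encodes IkB-beta, had a difference of 1.29 that was 2.98 against PBS array 1 and −0.39 against PBS array 2. The ubiquitin ligase ITCH (0.65, with 1.36 and −0.055) and NFKBIE, which encodes IkB-epsilon (0.27, with 0.43 and 0.11), were the next highest. NFKBIE lay above both PBS arrays, with signals of 454 and 475 on the rhLH arrays against 341 and 429 on the PBS arrays.

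Known target genes of NF-kB had 6 of 25 kept genes below both PBS arrays and 2 above (24% and 8%), with a median of 0.044. IL6, an inflammatory cytokine, had the lowest difference (−2.07, with −3.06 and −1.08), from signals of 26.1 and 84.0 on the rhLH arrays, both below 90.7, against 524 and 121 on the PBS arrays. CXCL10, a chemokine, stood at −0.88 (with −1.62 and −0.14), and the groups overlapped. VCAM1, an endothelial adhesion molecule, was at −0.84 (with −1.08 and −0.59), from signals of 1693 and 1067 on the rhLH arrays against 2868 and 2028 on the PBS arrays. GADD45B, a stress response gene, had 1.12 (2.19 against PBS array 1 and 0.054 against PBS array 2), and MMP9, a matrix protease, had 1.02 (with 1.42 and 0.63), and the groups overlapped for both. BCL2L1, an inhibitor of apoptosis, read 250.3 and 337 on the rhLH arrays against 172 and 128 on the PBS arrays (log2 difference 0.90, with 0.71 and 1.09), but its further probe set stood at −0.078. The targets thus lay on both sides of 0, and 11 of the 25 differences were negative.

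**Figure D4:**
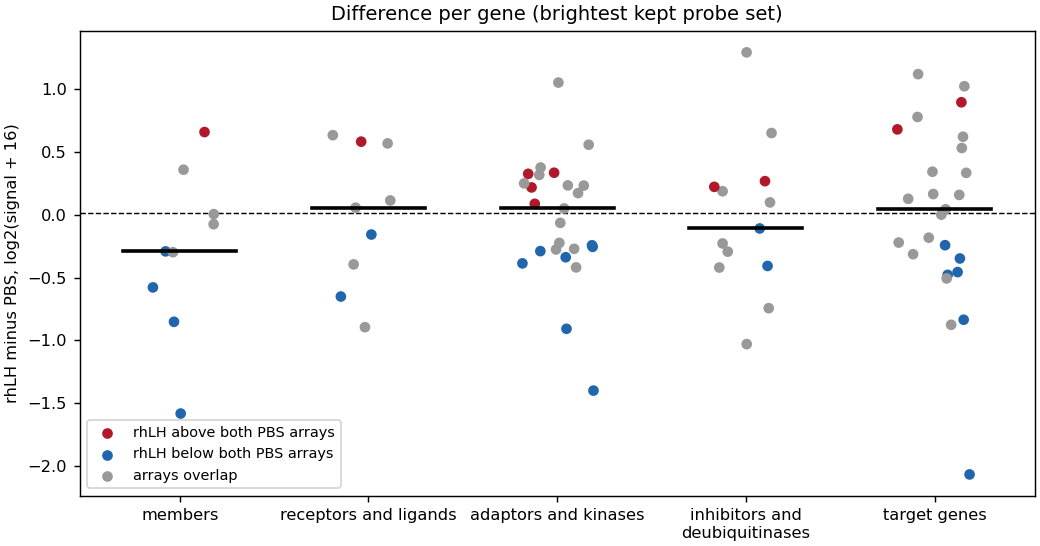
Difference of mean log2(signal + 16), rhLH minus PBS, for the 9 members and the kept genes of the 4 pathway lists (1 point per gene, brightest kept probe set; horizontal scatter is only for visibility). Red points lie above both PBS arrays on both rhLH arrays, blue points below both, grey points overlap; bars are list medians and the dashed line is the median over all kept genes (0.018). The list medians run from −0.11 to 0.057 and that of the members is −0.29.

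The summed signals of macrophage and lymphocyte markers, cells that use this pathway, differed between the 2 PBS arrays. The 9 kept macrophage and monocyte markers summed to 27987 and 20206 on the rhLH arrays and to 11631 and 40594 on the PBS arrays. On their brightest probe sets, 0 of the 9 separated the groups. Further kept probe sets stood at 0.18 and 0.89 for MRC1, −0.35 for C1QA, −0.57 for AIF1 and −0.99 for CD68. That of CD68 lay below both PBS arrays, whereas its brightest stood at 0.74. The 8 lymphocyte markers summed to 29736 and 22157 on the rhLH arrays and to 8641 and 30041 on the PBS arrays. On their brightest probe sets, 2 (KLRD1 and GZMB) lay above both PBS arrays and 0 below. Their further kept probe sets stood at −0.89 for KLRD1, −0.69 for PTPRC, −0.34 for GNLY and 1.12 for CD79B. Single genes carried much of the macrophage and lymphocyte sums. LYZ read 13206 and 12488 on the rhLH arrays and 6121 and 28435 on the PBS arrays, and without it the macrophage sums were 14781 and 7718 on the rhLH arrays and 5509.8 and 12160 on the PBS arrays. GZMB, the brightest lymphocyte marker, read 15764 and 16051 on the rhLH arrays and 4481 and 10891 on the PBS arrays. Without GZMB the lymphocyte sums were 13972 and 6107 on the rhLH arrays and 4160 and 19149.5 on the PBS arrays. GNLY, a cytotoxic lymphocyte gene, read 8054 and 2041 on the rhLH arrays and 476 and 14790.5 on the PBS arrays. PBS array 1 was the lowest of the 4 for 7 of the 9 macrophage markers, 5 of the 8 lymphocyte markers and 1 of the 4 neutrophil markers. This was not particular to leukocyte markers. PBS array 1 was also the lowest for 9 of the 10 luteal steroidogenic and 7 of the 11 endothelial markers. In the fibroblast, pericyte and smooth muscle, and erythroid lists it was so for 4 of 8, 2 of 6 and 1 of 2. The share over all kept probe sets was 35.7%, and 42.3% at a mean signal of 300 or more. The 4 neutrophil markers summed to 728 and 712 on the rhLH arrays and to 687 and 755 on the PBS arrays. PTPRC, the pan-leukocyte antigen, had signals of 733 and 234 on the rhLH arrays and of 628 and 356 on the PBS arrays on its brightest probe set. The T cell genes CD3D and CD3E and the macrophage gene CD163 were not matched and were not analysed here.

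Endothelial markers (11 kept) summed to 24713 and 28064 on the rhLH arrays and to 22671 and 26623 on the PBS arrays. The 10 luteal steroidogenic markers summed to 180376 and 195686 on the rhLH arrays and to 90529.8 and 182035 on the PBS arrays, 5 of them above both PBS arrays and 0 below. The 8 fibroblast markers summed to 58449 and 67429.7 on the rhLH arrays and to 36261 and 69820.0 on the PBS arrays. The 6 pericyte and smooth muscle markers summed to 16234.5 and 20166 on the rhLH arrays and to 11557 and 16631 on the PBS arrays. The 2 erythroid markers kept summed to 996 and 1235 on the rhLH arrays and to 1123 and 899 on the PBS arrays. The lowest and highest log2 differences in each list were those of MRC1 (−0.085) and TYROBP (0.82) among macrophage markers, CD8A (−0.26) and GZMB (1.18) among lymphocyte markers, and S100A8 (−0.26) and S100A9 (0.89) among neutrophil markers. In the other lists they were PECAM1 (−0.31) and KDR (1.35), INHBA (0.070) and CYP19A1 (2.11), COL3A1 (−0.89) and COL1A1 (0.61), MYH11 (−0.65) and TAGLN (1.27), and HBB (−0.084) and ALAS2 (1.24). None of these passed the limma test, and their part in the members' values was not tested.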

How the data were processed

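Luteal RNA was measured on 4 Affymetrix rhesus macaque arrays, 2 per group. The deposited values are probe set intensities on a linear scale, which are MAS5 signals per the submitters' processing notes. Their 2% trimmed mean was 500 on each array, inside the 10% tolerance set for it, so no further normalization was applied. The sources used here do not name a scaling target, although all arrays share that mean, and give no detection calls. Mismatches of rhesus probes to bonnet monkey transcripts were not examined.

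Of 52865 probe sets, 99 controls were left out. Values entered as log2(signal + 16), and probe sets above the 40th percentile of mean log2 (a signal of 90.7) were kept, which left 31659. Symbols came from the platform annotation: 24956 probe sets had 1 symbol, 361 several and 27449 none. In the lists, the brightest kept probe set stood for a gene. The test was limma 3.58.1 in R 4.3.3 (two-sided, eBayes with a mean-variance trend; p-values adjusted by Benjamini-Hochberg over all kept probe sets, threshold 0.05), checked on simulated data. Noise was alike on all simulated arrays, so that check does not cover how PBS array 1 departed from the others. SDs are over 2 arrays. The number of arrays limits the precision.

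The members and lists were chosen with earlier results of these data known. The text names all members, the 3 lowest and 3 highest genes of each pathway list, the lowest and highest of each marker list and the 5 genes nearest to BCL10. STAR, PTPRC, LYZ, GNLY, C1QA, AIF1, CD68, KLRD1, CD79B and LTBR were added after their values were seen.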

Additional observations from a re-analysis of the deposited data

How the results depend on the processing

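Over 13 alternatives the BCL10 difference on its brightest probe set ran from −1.84 to −1.33. MALT1, NFKBIA and REL kept their sign in the 12 that kept their probe sets (all but the filter at the 70th percentile). Their size was less stable. MALT1 on MmuSTS.850.1.S1_at moved to −0.36 under quantile normalization and to −0.45 with a pseudocount of 64. REL moved to 0.83 under quantile normalization and to 0.77 with centred arrays. Centring arrays on their medians added 0.11 to every log2 difference. It moved the median of the members without BCL10 to −0.069, of adaptors and kinases to 0.17 and of inhibitors to 0.0057. Quantile normalization moved that of adaptors and kinases to −0.029, and no filter to −0.064. The filter at the 70th percentile kept 12 member probe sets, 5 below and 0 above both PBS arrays, and moved the median of members without BCL10 to −0.075 and of targets to 0.33. Averaging probe sets moved the medians of members without BCL10 to 0.12, of adaptors and kinases to −0.078 and of inhibitors to 0.099. Leaving out 1 array gave 9 to 13 probe sets below, 3 to 9 above and 0 to 5 at least 2-fold above. Medians then ran from −0.34 to −0.022 for members without BCL10, −0.097 to 0.050 for adaptors and kinases, −0.13 to 0.23 for inhibitors, −0.19 to 0.12 for targets and −0.21 to 0.35 for receptors and ligands. Over all 13 alternatives the median changed sign in 6 for adaptors and kinases, 5 for receptors and ligands and 3 for inhibitors. It did so in 2 for targets and 1 for members without BCL10. limma calls ran from 0 to 8169, the latter without PBS array 2, where PBS array 1 is the sole control and is assumed to vary like the rhLH arrays. Of 287 single probe set values 18, from 11 probe sets, changed sign, 10 of them without PBS array 1. The causes were not tested. No paired analysis was possible because the groups share no replicate numbers. Detection calls were not used, so dim signals have no stated limit.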
